A study of Mus musculus with 12 samples.

Results

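The subunits of the mitochondrial respiratory chain and of ATP synthase that are encoded in the nucleus were examined in livers of mice given 1 of 3 long-acting insulins or saline. The genes were taken by symbol, as every gene whose probe set carried a single symbol and began with Nduf, Sdh, Uqcr, Cox4 to Cox8 or Atp5 followed by the letters of a subunit. This gave 80 genes of 19937 genes with such a probe set, namely 34 of complex I, 4 of complex II, 8 of complex III, 17 of complex IV and 17 of complex V. They were read by 103 probe sets, and for each gene the probe set with the highest mean over the 12 arrays was used. The choice was by name and used no difference between treatments. A further 6 probe sets with such a symbol carried several symbols, and no gene was named from them.

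Wild type C57BL/6 mice received saline, Albulin, Insulin-Apo or insulin glargine under the skin, and the livers were taken 6 h later. The 3 insulins were given at 55 nmol/kg, and each treatment had 3 arrays. Albulin is an insulin fused to albumin, Insulin-Apo is a single-chain insulin fused to human apolipoprotein A-I, and insulin glargine is a long-acting analogue without a carrier protein. The labels give an age of 6 weeks, and the arrays held RNA of whole liver. Nothing in the labels ties an array to a mouse of its own. The p values therefore describe the spread among the arrays at hand, and part or all of it may be technical. Whole liver holds several cell types, and fewer cells of a type cannot be told apart from less RNA per cell.

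The respiratory chain sits in the inner mitochondrial membrane. Complexes I and II pass electrons from NADH and succinate to ubiquinone, complex III hands them to cytochrome c and complex IV to oxygen. Complexes I, III and IV pump protons, and complex V, the ATP synthase, lets them flow back while it makes ATP. In liver this chain oxidises the products of fatty acid and amino acid breakdown, and it supplies ATP for glucose production in fasting. Insulin opposes the fasting state, and the coactivator Ppargc1a, which drives nuclear genes of the chain together with the receptor Esrra and the factors Nrf1 and Gabpa, is known to be held down by insulin in hepatocytes. A few catalytic subunits are encoded by mitochondrial DNA, and these were not analysed here.

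Expression was measured on Affymetrix arrays of the type Mouse Gene 1.0 ST, as log2 values summarised with the Robust Multichip Average algorithm (RMA). All 80 subunits passed the filter on dim probe sets, which asks for a value above 5 in 2 or more arrays of some group, and each was over 5 in all 12 arrays. Their values ran from 5.36 to 14.27. The median SD within a group was 0.103 on the log2 scale for the subunits and 0.114 for all 26027 probe sets kept. The median of an array was 7.70 to 7.77. The hepatocyte markers had a mean of 14.27 to 14.36 in every array, so the label of liver held in all 4 groups.

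The third insulin glargine array stood apart from the others. It held the highest or the lowest value of the 12 arrays for 48 of the 80 subunits, 26 of them highest and 22 lowest, and for 40.1% of all probe sets. The other arrays did so for 2 to 30 subunits. The third Albulin array came next, with the lowest value for 30 subunits. Values that rest on the third insulin glargine array are therefore given with and without it. The difference between the highest and the lowest array was under 0.5 on the log2 scale for 59 subunits in all 12 arrays and for 73 subunits in the other 11.

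**Figure D1:**
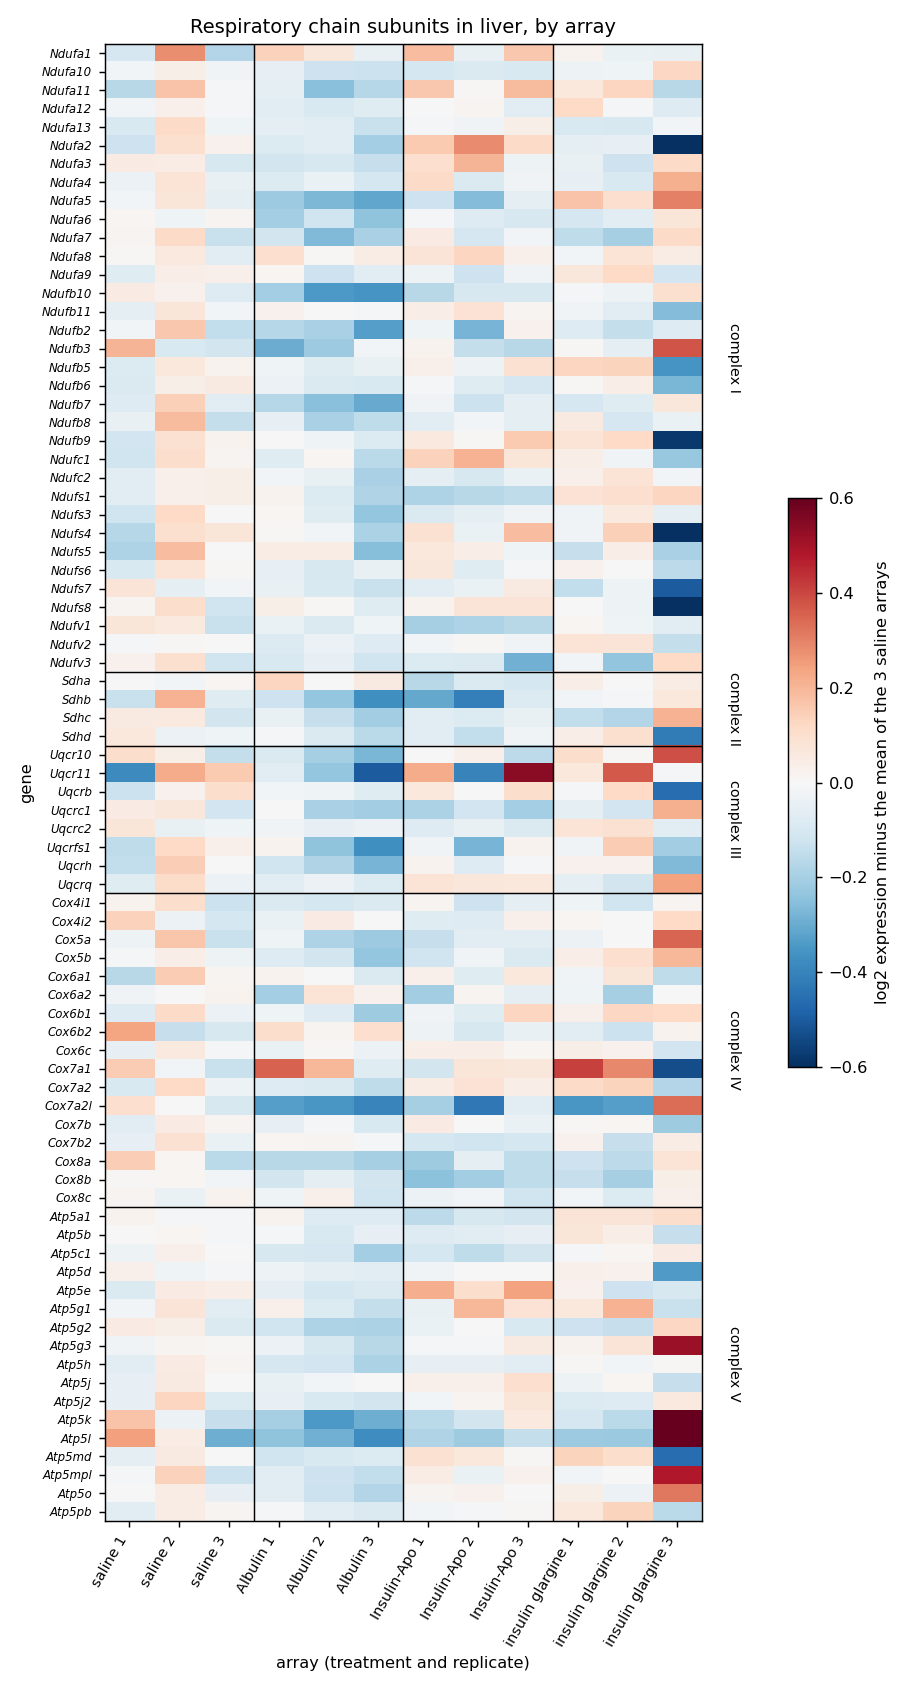
Each row is a subunit gene, grouped by complex, and each column is an array. Colour gives the log2 expression minus the mean of the 3 saline arrays of that gene, from -0.6 (blue) to 0.6 (red), where larger differences have the colour of the end of the scale. The 3 Albulin columns are mostly pale blue, and the third insulin glargine column holds the strongest colours in both directions.

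The subunits differed little between treatments 6 h after injection. In the probe sets used, no subunit moved by 0.58 on the log2 scale (1.49-fold) in any of the 6 comparisons between treatments. Among all probe sets such a change was found in 1.92% for Albulin, 1.82% for Insulin-Apo and 4.25% for insulin glargine against saline, and in 0.704% for Albulin against Insulin-Apo, 4.03% for insulin glargine against Albulin and 4.54% against Insulin-Apo. Only Ndufa5, an accessory subunit of complex I, was called in a comparison between a pair of treatments, by a B statistic (the log odds that a probe set differs) over 0 in limma. In a test of any difference among the 4 treatments, the moderated F test of limma, 2 of 80 subunits passed an adjusted p of 0.05, against 13.3% of all probe sets. These were Ndufa5 (adjusted p = 0.00698) and Ndufb10 (adjusted p = 0.0231). At an unadjusted p under 0.05, 9 of 80 subunits differed in this test. Ndufb7, Ndufs1, Sdhb, Uqcr10, Cox5b, Atp5a1 and Atp5e were the other 7. The share of all probe sets at that threshold was not counted, so nothing is read from the number of 9.

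Ndufa5 (probe set 10543442) belongs to the arm of complex I that reaches into the matrix. Its log2 expression was 9.59, 9.68 and 9.55 in the saline arrays, 9.39, 9.34 and 9.29 after Albulin, 9.48, 9.35 and 9.55 after Insulin-Apo, and 9.78, 9.71 and 9.91 after insulin glargine. All insulin glargine arrays lay above all other arrays, and all Albulin arrays lay below all saline arrays. Expression was higher by 0.46 on the log2 scale (1.38-fold) after insulin glargine than after Albulin (standard error 0.08, 95% interval 0.29 to 0.63, adjusted p = 0.00254, limma). This was the only subunit called of 80 in that comparison, in which 4.35% of all probe sets were called and 2.01% were called higher. Against Insulin-Apo the difference was 0.34 (adjusted p = 0.0131, limma, not called). Against saline, Ndufa5 was 0.19 higher after insulin glargine (95% interval 0.03 to 0.36, adjusted p = 0.149, limma) and 0.27 lower after Albulin (95% interval -0.42 to -0.11, adjusted p = 0.0594, limma), and neither was called. Without the third insulin glargine array the gap to Albulin was 0.40 and was called. With the B statistic as the rule, the call was kept in 20 of 21 alternative analyses and lost when only the arrays of the 2 groups entered the fit. It was also lost under a rule that asks for a log2 change of at least 0.58.

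Ndufb10 (probe set 10448737) belongs to the membrane arm of complex I. Its log2 expression was 9.40, 9.38 and 9.27 after saline, 9.15, 9.01 and 8.998 after Albulin, 9.18, 9.25 and 9.26 after Insulin-Apo, and 9.34, 9.32 and 9.45 after insulin glargine. The 3 Albulin arrays lay below the other 9 arrays. The difference from saline was -0.30 (standard error 0.07, 95% interval -0.45 to -0.15), with an adjusted p of 0.0307 (limma) and a B statistic below 0, so that Ndufb10 was not called. An adjusted p under 0.05 with a lower value was found for 1 of 80 subunits, Ndufb10, and for 2.27% of all probe sets. The difference between insulin glargine and Albulin was 0.32 (standard error 0.07, adjusted p = 0.0123, limma), also not called.

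**Figure D2:**
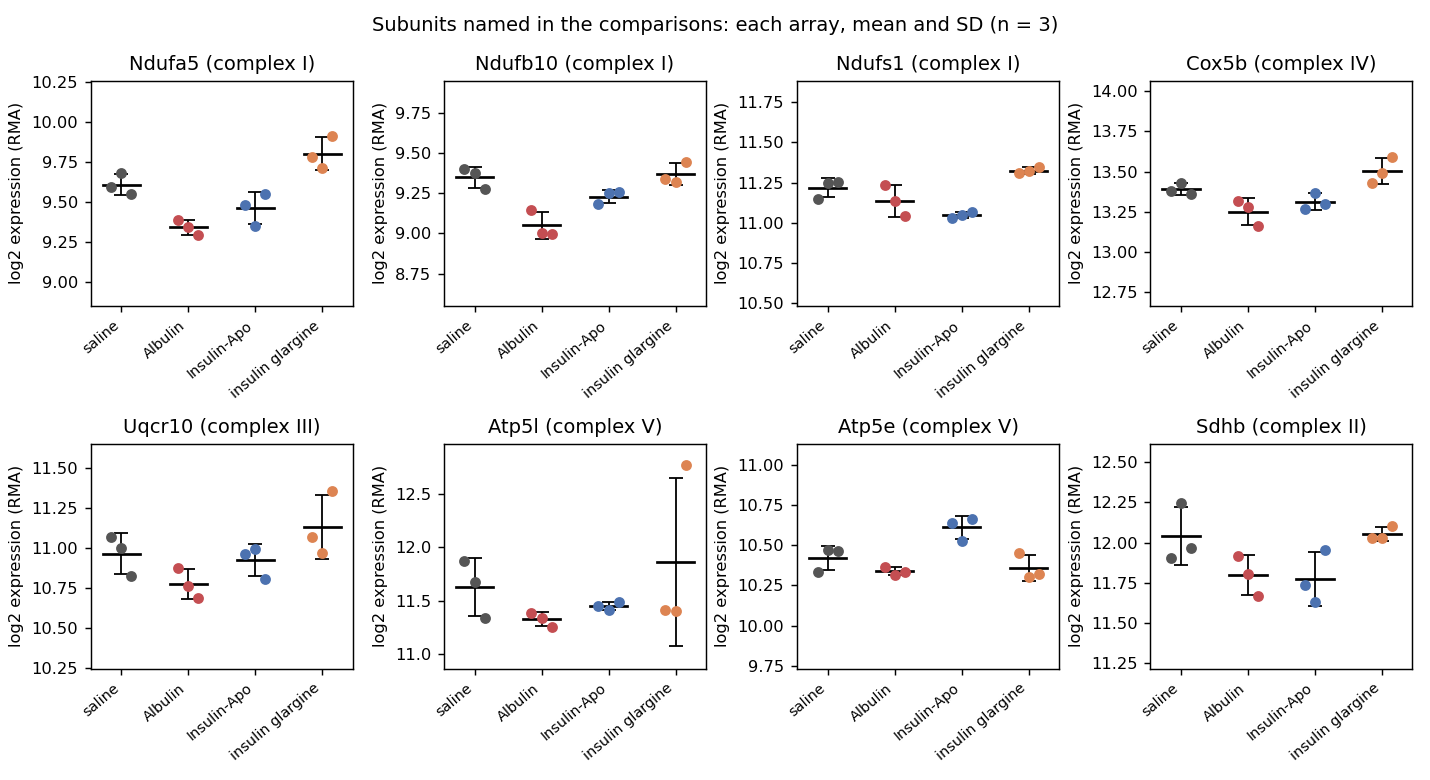
Each point is an array, with log2 expression on the vertical axis and the 4 treatments on the horizontal axis. The thick bar is the mean and the whiskers the SD of 3 arrays, and the vertical axis spans a longer range for Atp5l than for the others. Insulin glargine lies above Albulin in every array for Ndufa5, Ndufb10, Ndufs1, Cox5b, Uqcr10 and Sdhb, and a single insulin glargine array sets the mean of Atp5l.

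The 250 bases before the start of transcription are shown for the subunits with an adjusted p under 0.05 in any comparison for which RefSeq gave a window, so that the promoters of the most separated genes can be set side by side. The windows come from RefSeq on the build GRCm38.p6, are written from 5′ to 3′ on the strand of the gene, and end at the base before the start. Matches to the motifs named here are in capitals.

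Ndufa5 (chr6:24527691-24527940, minus strand): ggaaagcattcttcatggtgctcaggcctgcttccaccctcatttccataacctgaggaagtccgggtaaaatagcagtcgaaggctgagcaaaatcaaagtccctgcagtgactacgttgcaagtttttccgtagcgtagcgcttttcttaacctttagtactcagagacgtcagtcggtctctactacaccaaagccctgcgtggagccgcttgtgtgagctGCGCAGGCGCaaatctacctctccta

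Ndufb10 (chr17:24724424-24724673, minus strand): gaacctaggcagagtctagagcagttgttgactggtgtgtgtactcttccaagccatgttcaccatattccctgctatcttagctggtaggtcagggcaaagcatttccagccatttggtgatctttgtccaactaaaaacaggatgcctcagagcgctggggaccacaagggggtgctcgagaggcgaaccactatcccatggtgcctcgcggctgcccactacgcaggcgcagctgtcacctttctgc

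Cox5b (chr1:36691237-36691486, plus strand): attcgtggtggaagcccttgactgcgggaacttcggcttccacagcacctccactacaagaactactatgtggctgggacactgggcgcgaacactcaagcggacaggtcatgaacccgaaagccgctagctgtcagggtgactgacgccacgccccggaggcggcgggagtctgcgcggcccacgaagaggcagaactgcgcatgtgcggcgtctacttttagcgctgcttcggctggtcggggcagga

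Atp5e (chr2:174464102-174464351, minus strand): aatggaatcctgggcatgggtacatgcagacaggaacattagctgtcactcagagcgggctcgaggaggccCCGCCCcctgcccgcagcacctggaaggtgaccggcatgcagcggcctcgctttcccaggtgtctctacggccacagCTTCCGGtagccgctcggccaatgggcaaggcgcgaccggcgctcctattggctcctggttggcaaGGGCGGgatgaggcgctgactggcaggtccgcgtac

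The motifs searched on both strands were those of NRF1 (a GC-rich palindrome with a free base), GABPA and other ETS factors (CCGGAAG), YY1 (AAGATGGCG), ERR (TNAAGGTCA), CREB (TGACGTCA), Sp1 (GGGCGG) and the E-box (CACGTG). Ndufa5 held an NRF1 match that began 26 bases before the start shown, and a window at a second start of Ndufa5, not shown, also held an Sp1 match. Atp5e held a GABPA match at 102 bases and Sp1 matches at 179 and 36 bases. The windows of Ndufb10 and Cox5b held none of these letters. Windows were found for 66 of the 80 subunits, and for 27025 genes in all. Some genes have more than 1 start, which gave 71 windows for the 66 subunits, and a gene was counted where any of its windows held a match. NRF1 matches were found for 12 of the 66 genes (18.2%, against 4.23% of all genes) and GABPA matches for 12 (18.2%, against 7.83%). ERR and YY1 matches were found for 1 gene each, Atp5g3 and Atp5j (1.52%, against 1.30% and 0.711%), and CREB matches for 4 (6.06%, against 1.77%). Sp1 matches were found for 24 genes (36.4%, against 35.4%) and E-boxes for 6 (9.09%, against 6.86%). These are matches of letters and no measure of binding.

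After Albulin, most subunits lay slightly below saline in the probe sets used, none far below. No subunit of 80 was called, against 2.41% of all probe sets. The median log2 change was -0.08 for the subunits and 0.0026 for all probe sets. Of the 80 subunits 72 had a value below 0, against 49.1% of all probe sets. At an unadjusted p under 0.05, 13 were lower and none higher, against 9.08% and 8.98% of all probe sets. In 21 subunits the 3 Albulin arrays lay below the 3 saline arrays, against 11.7% of all probe sets. The count of 13 was 6 without the second saline array, in which the subunits had their highest saline median, 8 without the second Albulin array and 7 without the third.

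The 13 subunits were spread over 4 complexes. They were Ndufa5, Ndufa6, Ndufa7, Ndufb2, Ndufb7 and Ndufb10 of complex I, Uqcrh of complex III, Cox7a2l beside complex IV, and Atp5c1, Atp5g2, Atp5h, Atp5k and Atp5l of complex V. All 6 from complex I were accessory subunits. The 6 core subunits of complex I, which are conserved from bacteria to mammals, ran from -0.10 to -0.01. The 95% interval lay within 0.58 of 0 on either side for 79 of the 80 subunits, and Uqcr11 was the exception with -0.76 to 0.23. For all probe sets this share was 92.7%.

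The shift was uneven among the Albulin arrays. The median difference of the 80 subunits from the saline mean was -0.05, -0.09 and -0.13 in the 3 Albulin arrays, and -0.02, 0.06 and -0.02 in the saline arrays. All 3 Albulin arrays lay below all saline arrays, and the first Albulin array was level with the second Insulin-Apo array (-0.05). In the same arrays the median of all probe sets differed from the saline mean by -0.02, 0.02 and 0.01. Neutrophil markers also differed from saline, as 4 of 9 (S100a8, S100a9, Cxcr2 and Mmp8) were called higher after Albulin, against 1.37% of all probe sets. Their mean was 6.84 to 7.03 in the saline arrays, 7.34 to 7.57 after Albulin, 7.19 to 7.36 after Insulin-Apo and 6.76 to 6.96 after insulin glargine. The part of these cells in the subunit values was not tested. The hepatocyte list had a median log2 change of 0.0018 after Albulin, with none of 9 called.

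**Figure D3:**
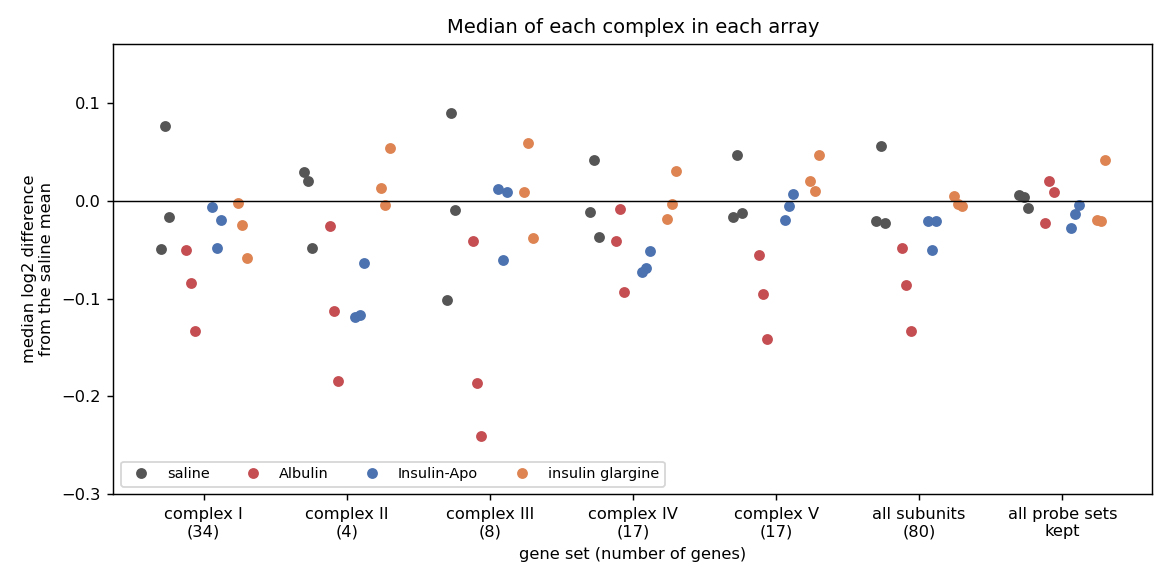
Each point is an array, coloured by treatment. The vertical axis gives the median, over the genes of a complex, of the log2 difference from the mean of the 3 saline arrays of each gene, and the last 2 columns give this over all subunits and over all probe sets kept. For all subunits the Albulin arrays lie at -0.05, -0.09 and -0.13, below the 9 others, except that the first Albulin array and the second Insulin-Apo array are level.

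After Insulin-Apo the subunits stayed closer to saline. None of 80 was called, against 2.14% of all probe sets, and the median log2 change was -0.04, against -0.02 for all probe sets. A value below 0 was found in 50 subunits, against 55.9% of all probe sets. By the same unadjusted p, 5 subunits were lower (Ndufs1, Ndufv1, Sdhb, Cox7a2l and Cox8b) and 2 were higher (Ndufa2 and Atp5e), against 8.28% and 9.13% of all probe sets. These counts turned on single arrays, as they were 1 lower and 5 higher without the second saline array, and none was higher without the first. All Insulin-Apo arrays lay below all saline arrays in 12 subunits and above them in 2, against 12.7% and 10.4% of all probe sets. The 95% interval lay within 0.58 of 0 for 79 subunits, again with the exception of Uqcr11. Both fusion proteins were compared with the same saline arrays. Cell markers differed from saline here too. At an unadjusted p under 0.05, 5 of 10 Kupffer cell and macrophage markers and 5 of 9 neutrophil markers were higher, against 9.13% of all probe sets. Of these, 1 Kupffer cell and macrophage marker was called, where 1.34% of all probe sets were called higher. The part of these cells in the subunit values was not tested.

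Albulin and Insulin-Apo carry different fusion partners and were given at the same dose and time. No subunit differed between them by the B statistic, against 0.639% of all probe sets. The median difference, Albulin minus Insulin-Apo, was -0.07, against 0.0189 for all probe sets, and 63 subunits lay below 0, against 43.4%. In 28 subunits the 3 Albulin arrays were below the 3 Insulin-Apo arrays, and in 6 they were above, against 9.02% and 9.55% of all probe sets. An unadjusted p under 0.05 was found for 11 lower subunits and 1 higher, Sdha, after Albulin, against 7.11% and 6.44% of all probe sets. The lower count was 5 without the third Albulin array, 6 without the second, and 16 with arrays centred on their medians. The smallest adjusted p was that of Atp5e (0.131, limma). Intervals stayed within 0.58 of 0 for 79 subunits, so larger differences between the fusion proteins were outside the 95% interval for all but Uqcr11 (-0.88 to 0.11).

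After insulin glargine no subunit was called against saline, although 4.84% of all probe sets were. The median log2 change was -0.02, against -3e-04 for all probe sets, and 46 subunits lay below 0, against 50.1%. At an unadjusted p under 0.05 the counts were 1 higher (Ndufa5) and 1 lower (Ndufs7, -0.23), against 10.6% and 11.9% of all probe sets. In 4 subunits all insulin glargine arrays lay above all saline arrays and in none below, against 11.8% and 13.1% of all probe sets. Ndufs7 carries an iron-sulphur cluster of complex I. Its value in the third insulin glargine array was 13.20, below the other 11 arrays, and without that array the difference was -0.09. The 95% interval lay within 0.58 of 0 for 76 subunits (85.3% of all probe sets), the exceptions being Ndufa2, Ndufs8, Uqcr11 and Atp5l.

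**Figure D4:**
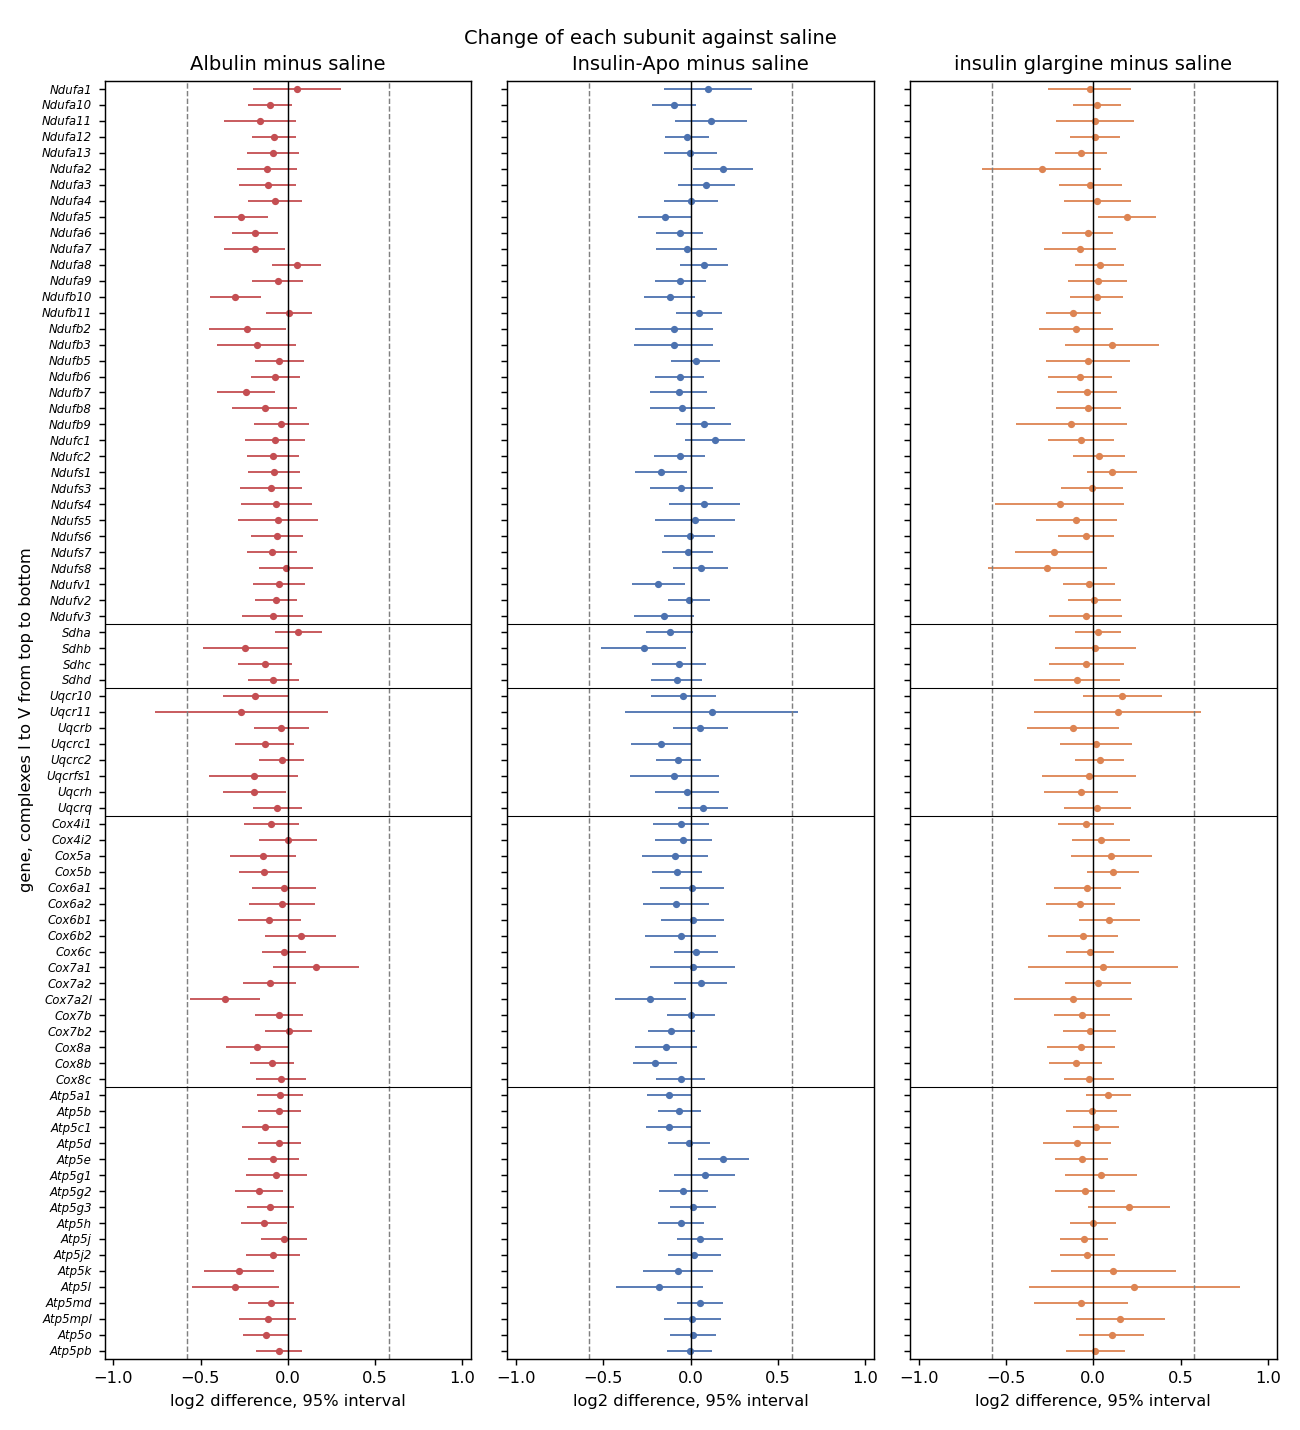
Points are the log2 difference of each subunit from saline after Albulin, Insulin-Apo or insulin glargine, and lines are 95% intervals from limma. Subunits are ordered by complex from I at the top to V at the bottom, and the dashed lines mark 0.58 on either side of 0. No point lies beyond the dashed lines, and the intervals of insulin glargine are the widest, as for Atp5l (-0.37 to 0.84).

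Between insulin glargine and Albulin, most subunits were higher after insulin glargine. At an unadjusted p under 0.05, 18 subunits were higher after insulin glargine and none lower, against 9.97% and 11% of all probe sets. In 22 subunits all insulin glargine arrays lay above all Albulin arrays, and in 1 all lay below, against 10.7% and 12.3% of all probe sets. The median difference was 0.08, against -0.0064 for all probe sets, and 22 of 80 subunits lay below 0, against 52.1%. The count of 18 was 14 without the third insulin glargine array, 11 without the second Albulin array and 5 without the third. Ndufa5, Ndufb10 and Cox5b had an adjusted p under 0.05 with a higher value (3 of 80, against 4.13% of all probe sets), and of these Ndufa5 and Ndufb10 kept it without the third insulin glargine array. Neutrophil markers differed in the same comparison, with 4 of 9 called lower after insulin glargine than after Albulin (2.35% of all probe sets), and their part in it was not tested.

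Against Insulin-Apo, none of 80 subunits was called after insulin glargine, where 4.84% of all probe sets were. At an adjusted p under 0.05, Ndufa5, Ndufs1 (0.27) and Atp5a1 (0.21) were higher and Atp5e (-0.25) was lower, against 4.53% and 6.32% of all probe sets, and without the third insulin glargine array this held for Ndufa5 and Ndufs1. The median difference was 0.02, equal to that of all probe sets to 2 decimals. An unadjusted p under 0.05 was found for 8 higher and 4 lower subunits, against 10.9% and 12.6% of all probe sets, and 34 subunits lay below 0, against 43.9%. The higher count was 3 without the first Insulin-Apo array and 5 without the second, and the lower count was 8 without the second insulin glargine array and 2 without the first or the second Insulin-Apo array. The arrays of the groups did not overlap in 14 higher and 6 lower subunits, against 12.8% and 12.7% of all probe sets. In the same comparison 3 of 9 neutrophil markers and 2 of 10 Kupffer cell and macrophage markers were called lower after insulin glargine, against 2.88% of all probe sets. The Kupffer list had a mean of 10.28 to 10.71 after Insulin-Apo and 9.69 to 10.36 after insulin glargine, and its part in the subunit values was not tested.

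In complex I, Ndufs1 (probe set 10355084), the largest core subunit and a carrier of iron-sulphur clusters, had values of 11.15, 11.25 and 11.26 after saline and 11.24, 11.13 and 11.04 after Albulin. It had 11.03, 11.05 and 11.07 after Insulin-Apo and 11.31, 11.32 and 11.35 after insulin glargine. The insulin glargine arrays were above all others, and the Insulin-Apo arrays were below the saline arrays. Insulin glargine exceeded Insulin-Apo by 0.27 (limma, adjusted p = 0.0193, standard error 0.07), and Insulin-Apo against saline was -0.17 (adjusted p = 0.222, limma). Ndufv1, which binds NADH, had -0.18 after Insulin-Apo (adjusted p = 0.184, limma). The accessory subunit Ndufa2 had 0.18 after Insulin-Apo and -0.12 after Albulin, each against saline, and the difference of -0.30 between them had an adjusted p of 0.147 (limma). After insulin glargine its values were 10.82, 10.83 and 10.09, and the difference from saline changed from -0.30 to -0.05 without the third array. Ndufs8, another iron-sulphur subunit, had 12.36, 12.33 and 11.60 there, and its difference from saline changed from -0.26 to -0.01. Ndufa4, named after complex I and now placed in complex IV, stayed between -0.07 and 0.02 against saline after the 3 insulins.

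The 4 subunits of complex II, which is also succinate dehydrogenase of the TCA cycle, did not all lie on the same side of saline after Albulin (3 of 4 below) or insulin glargine (2 of 4), while all 4 lay below it after Insulin-Apo. Sdhb (probe set 10509858), the iron-sulphur subunit, had values of 11.91, 12.25 and 11.97 after saline, 11.92, 11.81 and 11.67 after Albulin, 11.73, 11.63 and 11.96 after Insulin-Apo, and 12.03, 12.03 and 12.10 after insulin glargine. Its log2 change against saline was -0.24 after Albulin (95% interval -0.49 to 0.00), -0.27 after Insulin-Apo (95% interval -0.51 to -0.02) and 0.01 after insulin glargine (95% interval -0.22 to 0.24). The arrays of each fusion protein overlapped those of saline, but lay below those of insulin glargine. Sdha, the flavoprotein subunit, had 0.06 after Albulin and -0.12 after Insulin-Apo, and all Albulin arrays (12.96, 12.83 and 12.89) lay above all Insulin-Apo arrays (12.67, 12.75 and 12.73). That difference was 0.18 (95% interval 0.05 to 0.31, adjusted p = 0.232, limma). The membrane anchors Sdhc and Sdhd had -0.13 and -0.08 after Albulin, -0.07 and -0.08 after Insulin-Apo, and -0.04 and -0.10 after insulin glargine, none of them with an interval away from 0. Without the third insulin glargine array the last 2 values were -0.16 and 0.07, so that Sdhd turned its sign.

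In complex III, all 8 subunits were below saline after Albulin, with a median of -0.16. This was the lowest median of the 5 complexes, and no test was made of that order. The hinge protein Uqcrh had the smallest p, with a change of -0.19 (95% interval -0.37 to -0.01, adjusted p = 0.242, limma). The core subunit Uqcrc1 had -0.13 after Albulin and -0.17 after Insulin-Apo. Uqcr10, a small accessory subunit, had 11.07, 10.999 and 10.82 after saline, 10.88, 10.77 and 10.69 after Albulin and 11.07, 10.97 and 11.35 after insulin glargine. Every insulin glargine array of Uqcr10 was above every Albulin array, by 0.35 in the means (95% interval 0.13 to 0.58, adjusted p = 0.0552, limma), and by 0.24 without the third insulin glargine array. Uqcr11 varied most among the 3 arrays of a group, from 11.28 to 11.89 after saline and from 11.26 to 12.21 after Insulin-Apo.

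In complex IV the common subunits and the isoforms of other tissues lay on different sides in the difference between Albulin and Insulin-Apo. The 9 subunits of the common form all lay below saline after Albulin (median -0.10), and all 9 lay below Insulin-Apo. The 7 isoforms known from other tissues, namely Cox4i2 of lung, Cox6a2, Cox7a1 and Cox8b of heart and muscle, and Cox6b2, Cox7b2 and Cox8c of testis, had a median of 0.0014, and 3 of them were below saline. All 7 were above Insulin-Apo. After Insulin-Apo, 6 of the 7 isoforms and 4 of the 9 common subunits lay below saline, and after insulin glargine 5 of each did. This difference between common subunits and isoforms was not tested. The isoforms had median values over the 12 arrays of 5.47 for Cox7b2, 7.32 for Cox4i2 and Cox8b, 7.37 for Cox6b2, 7.76 for Cox8c, 8.14 for Cox6a2 and 8.49 for Cox7a1. Their presence in liver cannot be read from these levels, since probe sets differ in brightness, and skeletal muscle markers kept a mean of 7.59 to 7.74 in all arrays.

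Cox5b (probe set 10345504), a common subunit that binds zinc on the matrix side, had 13.38, 13.43 and 13.36 after saline, 13.31, 13.28 and 13.16 after Albulin, 13.27, 13.37 and 13.30 after Insulin-Apo, and 13.43, 13.49 and 13.59 after insulin glargine. The insulin glargine arrays lay above all Albulin and Insulin-Apo arrays. The difference from Albulin was 0.25 (standard error 0.07, adjusted p = 0.0410, limma), and 0.21 without the third insulin glargine array (adjusted p = 0.0874, limma). Cox8b had -0.20 after Insulin-Apo, the smallest adjusted p among the subunits in that comparison (0.0834, limma). Its 3 Insulin-Apo arrays lay below its saline arrays.

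Cox7a2l, a factor that joins complexes III and IV into supercomplexes, had the lowest change of all after Albulin. Its values were 10.18, 10.08 and 9.99 after saline, 9.75, 9.74 and 9.69 after Albulin, 9.89, 9.66 and 10.02 after Insulin-Apo, and 9.73, 9.75 and 10.42 after insulin glargine. All Albulin arrays lay below all saline arrays, by -0.36 (95% interval -0.56 to -0.16, adjusted p = 0.0517, limma). Insulin glargine differed from saline by -0.12 with all arrays and by -0.34 without the third (adjusted p = 0.0414, limma), and neither value was called. The third insulin glargine array was the highest of all 12 and the other 2 were near those of Albulin.

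In complex V all 17 subunits lay below saline after Albulin, with a median of -0.10. After Insulin-Apo the median was -0.0055, and after insulin glargine it was 0.01. Atp5k and Atp5l, small membrane subunits at the site where the enzyme forms dimers, had -0.28 and -0.30 after Albulin (adjusted p = 0.122 and 0.179, limma). Neither was called, but Atp5l was without the third saline array. The values of Atp5l (probe set 10528662) were 11.87, 11.67 and 11.33 after saline, 11.39, 11.34 and 11.25 after Albulin, 11.45, 11.41 and 11.48 after Insulin-Apo, and 11.41, 11.40 and 12.77 after insulin glargine. In this probe set a single insulin glargine array thus stood above the other 11, and the difference from Albulin of 0.54 became 0.08 without it. For Atp5k the same step changed 0.39 into 0.15. Atp5g3, which encodes subunit c of the rotor ring, had 12.98, 13.04 and 13.48 after insulin glargine, and 0.20 against saline became 0.05. The other probe sets of Atp5l differed between insulin glargine and Albulin by 0.04 (10354739) to 0.55 (10553840). That of 10599333 was 0.38 (adjusted p = 0.0471, limma, not called). Its insulin glargine arrays (10.78, 10.77 and 11.15) lay above its Albulin arrays (10.57, 10.55 and 10.43). For Albulin against saline these probe sets ran from -0.26 (10592983) to -0.0019 (10354739).

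Atp5e (probe set 10490221), the epsilon subunit of the central stalk, had the highest log2 difference of complex V between Insulin-Apo and saline, where 8 of the 17 subunits lay above 0. Its values were 10.33, 10.47 and 10.46 after saline, 10.37, 10.32 and 10.33 after Albulin, 10.64, 10.53 and 10.66 after Insulin-Apo, and 10.45, 10.30 and 10.32 after insulin glargine. The 3 Insulin-Apo arrays lay above the other 9. The differences were 0.19 from saline (adjusted p = 0.155, limma), 0.27 from Albulin (adjusted p = 0.131, limma) and 0.25 from insulin glargine (adjusted p = 0.0357, limma), and none was called. Without the third insulin glargine array the last was 0.24 (adjusted p = 0.0680, limma). Atp5a1, the alpha subunit of the catalytic head, had 13.14, 13.20 and 13.19 after Insulin-Apo and 13.37, 13.38 and 13.40 after insulin glargine, which did not overlap (0.21, adjusted p = 0.0411, limma, not called).

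Of the 80 genes, 16 had more than 1 probe set with a single symbol. None of the 23 other probe sets was called in any of the 6 comparisons. Between 18 and 21 of the 23 had the same sign as the probe set used. The largest disagreements were those of Atp5g1 and Atp5g2, which encode the same mature subunit c as Atp5g3, and reached 0.81 for Atp5g2 between insulin glargine and Insulin-Apo. There a second probe set of Atp5g2 (10447566) differed by 0.80. It had 9.15, 9.09 and 11.25 after insulin glargine, so the third array set this value. A second probe set of Atp5g1 (10390237) had -0.51 after Albulin against saline (adjusted p = 0.0307, limma, not called), where the probe set used had -0.06. Its Albulin arrays lay below its saline arrays.

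Larger changes were found for some genes that act around the chain, taken from lists of known members. Among 17 regulators of mitochondrial genes, Ppargc1b, a coactivator related to Ppargc1a, fell after Albulin by 0.64 in log2 units (standard error 0.12, adjusted p = 0.0126, limma), and Pprc1, another relative, rose by 0.44 (standard error 0.08, adjusted p = 0.0139, limma). In each direction this was 1 of 17, against 1.04% of all probe sets called lower and 1.37% called higher. The call for Ppargc1b held in 14 of 18 alternatives. It was lost with the replicate block, with all 12 arrays in the fit, and without the first or the second saline array. The call for Pprc1 held in 13 of 18 and was lost with all 12 arrays in the fit. Each of 4 arrays left out in turn also ended it (saline replicates 2 and 3, Albulin replicates 1 and 3). Ppargc1b was 9.04, 9.05 and 8.75 after saline, 8.04, 8.41 and 8.48 after Albulin, 8.44, 8.33 and 8.41 after Insulin-Apo, and 9.65, 8.99 and 9.09 after insulin glargine. Both fusion proteins lay below saline in every array, and insulin glargine lay above the fusion proteins in every array. Ppargc1b was higher after insulin glargine than after Albulin by 0.93 (standard error 0.16, adjusted p = 0.00299, limma) and than after Insulin-Apo by 0.85 (standard error 0.16, adjusted p = 0.00507, limma). These calls held in 19 and 16 of 21 alternatives, and both were lost with only the arrays of the 2 groups in the fit. The first was also lost without the first Albulin array. The other was also lost with the replicate block and without any 1 of the Insulin-Apo arrays. Esrra was 9.36, 9.51 and 9.36 after saline, 9.12, 9.18 and 9.12 after Albulin, 9.09, 9.10 and 9.28 after Insulin-Apo, and 9.59, 9.78 and 9.78 after insulin glargine. It was higher after insulin glargine than after Albulin by 0.58 (adjusted p = 0.000707, limma) and than after Insulin-Apo by 0.56 (adjusted p = 0.000880, limma). Ppargc1a itself had 11.35, 11.54 and 11.71 after saline, 10.30, 10.47 and 10.90 after Albulin, 11.63, 10.49 and 11.45 after Insulin-Apo, and 12.44, 12.14 and 11.04 after insulin glargine. Its differences of -0.98 for Albulin against saline (adjusted p = 0.055, limma) and 1.32 for insulin glargine against Albulin (adjusted p = 0.0299, limma) were not called. Nrf1, Gabpa and Tfam stayed between -0.19 and 0.21 against saline.

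Enzymes of the TCA cycle feed NADH and succinate into the chain. Of 12, 3 were called higher after insulin glargine against saline and none lower, against 2.24% and 2.6% of all probe sets. These were Idh3a by 1.00, citrate synthase Cs by 0.79 and fumarase Fh1 by 0.50 (limma, adjusted p = 0.000254, 0.00160 and 0.000441). Idh3a, a subunit of isocitrate dehydrogenase, was 11.30, 11.13 and 11.25 after saline and 12.07, 12.44 and 12.16 after insulin glargine, and these arrays did not overlap. Idh3a and Fh1 were also called higher against Albulin (2 of 12, against 2.01% of all probe sets). Against Insulin-Apo this held for Idh3a, Cs, Dlst and Fh1 (4 of 12, against 1.96%). The call of Dlst held in 12 of 21 alternatives. None of the 12 was called among saline, Albulin and Insulin-Apo. The list had a median log2 change of 0.16 after insulin glargine against saline, beside -0.02 for the subunits.

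Assembly factors of the complexes are proteins that build them and are not part of them. Of 42 measured, 2 were called lower after Albulin against saline, where 1.04% of all probe sets were called lower. These were Sdhaf4 of complex II by 0.52 (adjusted p = 0.00480, limma) and Cox14 of complex IV by 0.32. The call of Sdhaf4 held in 17 of 18 alternatives and was lost with all 12 arrays in the fit. That of Cox14 held in 4 of 18. After insulin glargine against saline, where 2.24% of all probe sets were called higher, 2 of 42 were. These were Cox10, which makes haem for complex IV, by 0.80 (adjusted p = 0.00120, limma) and Ndufaf4 by 0.60, whose call held in 7 of 21 alternatives. The median of the 42 was -0.10 after Albulin and -0.11 after insulin glargine. At an unadjusted p under 0.05, 11 were lower and none higher after Albulin, against 9.08% and 8.98% of all probe sets. After insulin glargine 13 were lower and 7 higher, against 11.9% and 10.6%. Of 18 carriers and feeders of electrons, none was called after Albulin or Insulin-Apo. After insulin glargine against saline Gpd2, the mitochondrial glycerol phosphate dehydrogenase, had 1.15 (called in 13 of 21 alternatives), Coq10a 0.71 (called in 6 of 21) and the ubiquinone enzyme Coq3 -0.50 (called in 20 of 21), which made 2 higher and 1 lower of 18, against 2.24% and 2.6% of all probe sets. Of 19 import proteins, 3 were called higher after insulin glargine against Albulin and none against saline, beside 2.01% and 2.24% of all probe sets. At an unadjusted p under 0.05, 6 were higher against saline and none lower, against 10.6% and 11.9% of all probe sets. The calls held in 18 of 21 alternatives for Timm10, 16 of 21 for Tomm20 and 9 of 21 for Timm17a. None of 8 nucleotide and proton carriers was called in any comparison.

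Ribosomal proteins, which like the subunits come from abundant short transcripts, gave a second reference. None of 58 cytosolic ribosomal genes was called in any comparison, and their median was -0.06 after Albulin, 0.05 after Insulin-Apo and 0.0077 after insulin glargine, each against saline. For 77 mitochondrial ribosomal genes the medians were -0.03, 0.07 and -0.01, and calls were made for 1 higher (Mrps31) and 2 lower genes (Mrpl14 and Mrpl49) after insulin glargine only, against saline (2.24% and 2.6% of all probe sets). These calls held in 20, 12 and 18 of 21 alternatives. In the difference between Albulin and Insulin-Apo, the medians were -0.10 for the cytosolic and -0.13 for the mitochondrial ribosomal genes, beside -0.07 for the subunits. At an unadjusted p under 0.05, 25 of the 77 mitochondrial ribosomal genes were lower there and none higher, against 7.11% and 6.44% of all probe sets. Against saline, 13 were lower and 2 higher after Albulin (9.08% and 8.98% of all probe sets). After Insulin-Apo 16 were higher and none lower (9.13% and 8.28%). As a check of insulin action in the same arrays, the lipogenic genes Fasn, Acly and Acaca rose by 1.42, 1.55 and 1.39 after Albulin against saline (3 of 7 genes of the list, against 1.37% of all probe sets called higher). None of the 7 was called after Insulin-Apo or insulin glargine against saline. The lowest change of the list was -2.14 after Albulin and -2.24 after Insulin-Apo, and neither was called. Each was also the lowest change among all probe sets tested in that comparison. At an unadjusted p under 0.05, 1 of 7 was higher and 1 lower after Insulin-Apo, against 9.13% and 8.28% of all probe sets. After insulin glargine 4 were higher and 1 lower, against 10.6% and 11.9%.

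**Figure D5:**
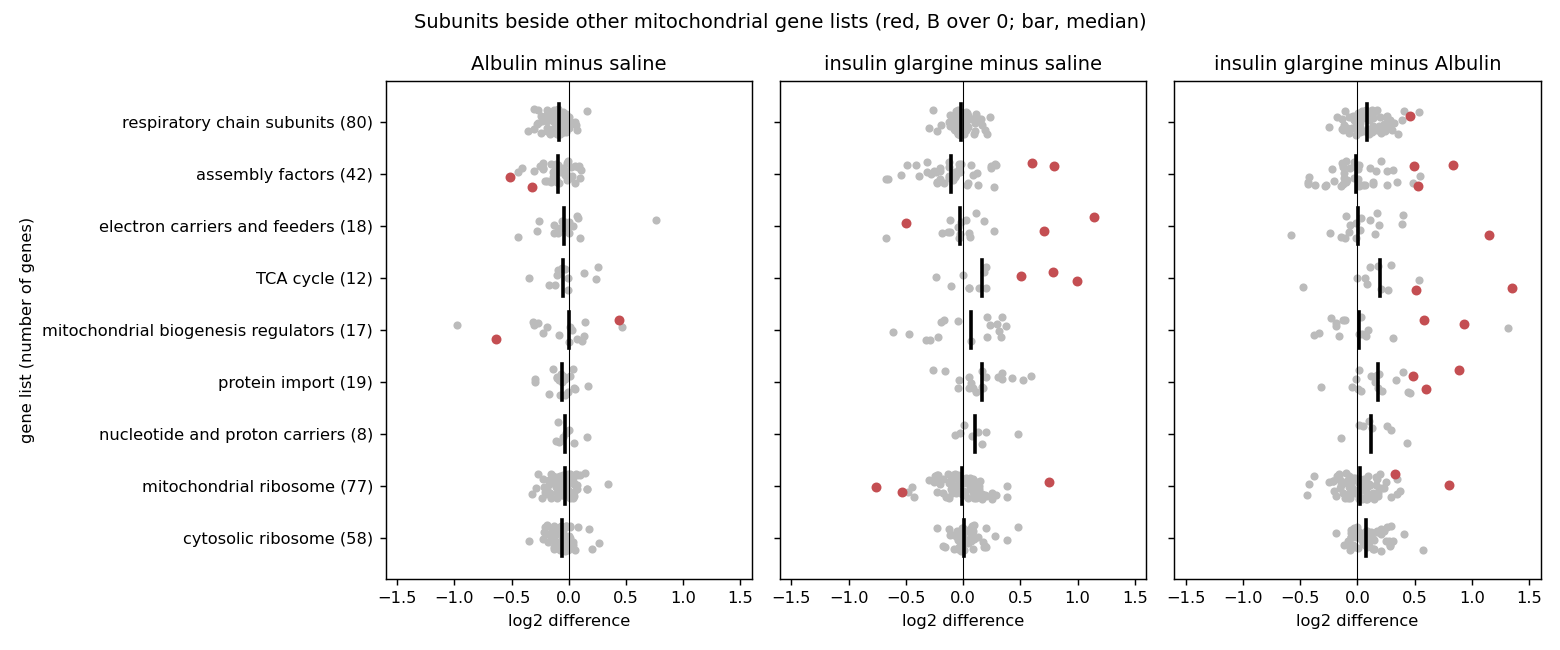
Each point is a gene, with its log2 difference on the horizontal axis for Albulin minus saline, insulin glargine minus saline and insulin glargine minus Albulin. Rows are the respiratory chain subunits and 8 further gene lists with the number of genes tested, black bars are medians, and red points were called (B over 0). The subunits lie between -0.36 and 0.54 in the 3 panels, with Ndufa5 as their only red point, and the TCA cycle has 3 red points for insulin glargine minus saline.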

How the data were processed

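Mouse liver RNA for 12 arrays, 3 for each of 4 treatments, was extracted with an automated kit, amplified into biotinylated cRNA and hybridised to Affymetrix Mouse Gene 1.0 ST arrays. The deposited values are log2 expression, which the authors summarised and normalised with RMA. The version of RMA and the annotation build were not given in the sources used here. The methods used here do not describe the insulin glargine group, which was taken from the labels. Probe sets were named from the platform annotation: of 28213 probe sets, 21640 had 1 symbol, 1321 several and 5252 none, and the symbols of all 80 subunits were found in RefSeq.

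Probe sets that passed a value of 5 in 2 or more arrays of any group were fitted with limma 3.58.1 (R 4.3.3). Saline, Albulin and Insulin-Apo were compared in a fit of their 9 arrays (25989 probe sets), and insulin glargine in a fit of all 12 (26027 probe sets). A probe set was called where the B statistic was over 0 (prior proportion 0.01), and p values were adjusted over all probe sets fitted by the Benjamini-Hochberg method. The call rule, the filter and the 9-array fit follow the methods of the study. Figures were drawn with Python 3.11.15, pandas 2.3.3 and matplotlib 3.10.9.

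The genes named were the subunits called, those with an adjusted p under 0.05, and the subunit with the smallest p of each complex in each comparison; Uqcr11, Atp5l, Ndufs7, Ndufs8, Ndufa4, the isoforms and others outside this rule were chosen after their values were seen. The subunits and the gene and marker lists were chosen with earlier results of these data known. Differences between subunits of a complex were not tested.

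On simulated data for Albulin against saline (25913 probe sets), 8 of 50 probe sets changed by 0.25 on the log2 scale were called, 33 of 50 changed by 0.5, and 49 of 50 changed by 1. For insulin glargine against saline (25960 probe sets) these counts were 3, 34 and 50 of 50. The changed probe sets were drawn from all those kept, so these counts are not a rate for the subunits. Against saline, the subunits ran from -0.36 to 0.16 after Albulin and from -0.30 to 0.24 after insulin glargine. The number of arrays, 3 a group, limits the precision.

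Alternatives covered the filter, centring, repeated quantile normalisation, array weights, an intensity trend, the arrays in the fit, the probe set of a gene, the call rule, the replicate block and each array left out. Counts at an unadjusted p under each alternative and the values of each subunit without the third insulin glargine array were added after seeing the data.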

Additional observations from a re-analysis of the deposited data

How the results depend on the processing

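The counts of subunits called were 0 under every alternative for Insulin-Apo against saline, Albulin against Insulin-Apo and insulin glargine against saline. For Albulin against saline the count was 1 with an adjusted p under 0.05 as the rule, and 0 to 1 with each array left out in turn (Atp5l without saline replicate 3). For insulin glargine against Albulin it was 2 with arrays centred on their medians, 3 with an adjusted p under 0.05, 0 with that and a log2 change of at least 0.58, 0 with only the arrays of the 2 groups compared, and 1 to 2 with each array left out in turn (2 without Albulin replicate 1). For insulin glargine against Insulin-Apo it was 4 with an adjusted p under 0.05. The F test over 4 treatments gave 1 subunit in place of 2 with the replicate block, which changed no other count of subunits called, and 1 to 3 with each array left out in turn; it gave 1 without saline replicate 1 or 2 and without Albulin replicate 2 or 3. Of 18 pairs of arrays with the same replicate number, 2 had a correlation of deviations over 0.1 (range -0.268 to 0.149, and -0.166 to 0.266 for other pairs). With 3 arrays a group, these correlations cannot show whether arrays of the same number shared a batch, and the labels do not say. The difference of Sdhd between insulin glargine and saline turned to 0.0235 with array quality weights, and ran from -0.19 to 0.0675 with each array left out, where insulin glargine replicate 3 gave the upper end. The median log2 change of the subunits ran from -0.046 to -0.0057 for Insulin-Apo against saline and from -0.0286 to 0.0218 for insulin glargine against saline with each array left out, in both cases reaching the upper end without saline replicate 2. It was 0.059 for insulin glargine against Insulin-Apo with quantile normalisation repeated. At an unadjusted p under 0.05, lower subunits after Albulin against saline numbered 6 to 18 over the alternatives, and higher subunits after insulin glargine against Albulin 5 to 20. The cause of these moves was not tested.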
